A study of Mus musculus with 12 samples.

Results

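The genes Gad2, Cnr1 and Maf, which are known for their expression in inhibitory neurons, were followed across hippocampal arrays from mice given kainate or saline. The members were all probe sets of the deposited table that the platform annotation assigns to Gad2, Cnr1 or Maf alone, which gave 4 of 12411 probe sets (1 for Gad2, 1 for Cnr1 and 2 for Maf) and 3 of 7542 genes named by a probe set. All 4 passed a filter that asked for values over 4 on 3 or more arrays, as did 6334 probe sets in all, and were tested with them. The 4 groups, of 3 arrays each, were animals labelled mutant given kainate, animals labelled mutant given saline, control animals given kainate and control animals given saline. By its title the series concerns mice lacking CREB and CREM, related cAMP-responsive transcription factors. The labels state neither the alleles nor the cells that lost them. Kainate activates ionotropic glutamate receptors and causes seizures, and it was injected intraperitoneally at 20 mg/kg and hippocampi were taken 1 h later. The mice of all groups were male and female littermates 5 to 6 weeks old, caged singly and handled for 5 days, and each array carried RNA pooled from 3 animals. Values are GCRMA summaries on a log2 scale, so that a difference of 1 is a 2-fold change. Differences were tested with limma over all 6334 probe sets and called at a Benjamini-Hochberg adjusted p under 0.05.

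Inhibitory neurons release GABA, which opens chloride channels and dampens the firing of their targets. Gad2 encodes GAD65, the form of glutamate decarboxylase that sits on synaptic vesicles and makes GABA for release, while its relative Gad1 encodes GAD67, which makes most of the GABA of the cell. Cnr1 encodes the cannabinoid receptor CB1, a presynaptic receptor coupled to inhibitory G proteins. In the hippocampus CB1 is most abundant on the terminals of cholecystokinin-containing interneurons and is present at lower density on excitatory terminals, where it limits glutamate release. Maf encodes a large Maf basic leucine zipper transcription factor that acts in the development of interneurons from the medial ganglionic eminence. Maf is also made by other cells, such as macrophages.

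The promoters of Gad2 and Cnr1 are shown because the mutation concerns factors that bind the cAMP response element. They run from 250 bases before to 50 bases after an annotated start and come from RefSeq on build GRCm38.p6. The table matched 2 of the 3 genes, with 1 window for Gad2 and 3 for Cnr1, and Maf was not matched. The windows were searched on both strands for the full element TGACGTCA, for its core TGACG, which the full element contains, and for the AP-1 element TGANTCA. Capitals mark the matched letters.
Gad2, chr2:22622077-22622376, + strand: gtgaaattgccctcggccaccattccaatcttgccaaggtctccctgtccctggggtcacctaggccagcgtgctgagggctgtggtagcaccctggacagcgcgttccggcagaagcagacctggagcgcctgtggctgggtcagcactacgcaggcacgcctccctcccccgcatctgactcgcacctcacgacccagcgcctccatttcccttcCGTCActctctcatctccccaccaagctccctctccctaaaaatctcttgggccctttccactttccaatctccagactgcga
Cnr1, chr4:33924014-33924313, + strand: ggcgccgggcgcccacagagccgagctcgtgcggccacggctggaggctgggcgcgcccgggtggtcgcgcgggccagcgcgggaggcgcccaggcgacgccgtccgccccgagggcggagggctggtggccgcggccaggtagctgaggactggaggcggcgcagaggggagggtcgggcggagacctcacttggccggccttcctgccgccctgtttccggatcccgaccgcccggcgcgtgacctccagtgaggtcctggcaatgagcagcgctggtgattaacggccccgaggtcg
The Gad2 window held the core once, on the opposite strand, beginning 33 bases before the start. It held no full element and no AP-1 element, and none of these letters stood in any of the 3 Cnr1 windows. Of all 32851 windows in the table, 20.8% held the core, 1.79% the full element and 7.81% the AP-1 element, so a core in 1 window of 4 lies near the share in all windows. A match of letters is a description and not evidence of binding.

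Before the results, a property of the whole series has to be stated. The 4 arrays numbered 1 stood apart from the rest. All of them lay above or all below the other 8 arrays for 1231 of 6334 probe sets (19.4%), against 21 for the arrays numbered 2 and 79 for those numbered 3. What the numbers mean was not stated in the labels. The results for the member probe sets are therefore given with all 12 arrays and without these 4, which leaves 2 arrays per group. For other genes some values are given from only 1 of these fits. The response to kainate was present in the arrays numbered 1 too. There the mean log2 value of 15 activity-induced genes was 8.14 in the kainate and 7.07 in the saline array labelled mutant, and 8.25 in the kainate and 7.08 in the saline control array. The Creb1 probe set, which reports a targeted gene, was not lower but higher in arrays labelled mutant. The genotypes did not overlap with either treatment, as for 3.09% of tested probe sets in this direction after kainate and 4.48% with saline. Creb1 averaged 7.97 ± 0.439 (SD, n = 3) in labelled mutant and 6.98 ± 0.154 in control kainate arrays, and 8.23 ± 0.117 in labelled mutant and 7.35 ± 0.350 in control saline arrays. The labels do not place its probes with respect to the deleted sequence. The Crem probe set did not pass the filter, with group means between 2.93 and 3.16. Of 26 markers of excitatory principal neurons, 8 were measured above the filter, among them Slc17a7, Neurod2 and Fibcd1. Their mean level lay between 8.36 and 8.67 in labelled mutant arrays and between 8.75 and 8.94 in control arrays. Some of them are shared with other forebrain regions, and no other tissue was measured.

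Gad2 averaged 1.79-fold lower after kainate in labelled mutant arrays and 2.39-fold lower in control arrays, and neither difference was called with all arrays. In labelled mutant arrays the 3 values, by replicate number, were 6.07, 5.66 and 5.44 after kainate, against 6.37, 6.74 and 6.58 after saline. The groups did not overlap, and the kainate array was the lower in all 3 numbers. In control arrays they were 6.05, 5.69 and 4.0 after kainate, against 5.99, 6.79 and 6.72 after saline. Here the groups overlapped through the arrays numbered 1, which differed by 0.06 in the other direction. The log2 difference was -0.84 (SE 0.450, limma adjusted p = 0.818) in labelled mutant and -1.26 (SE 0.450, adjusted p = 0.424) in control arrays. Differences at or below these values were found in 0.837% of all tested probe sets in labelled mutant and 0.268% in control arrays. Control kainate replicate 3, at 4.0, was the lowest of the 12 values, and the same array had the highest median of the series (4.07) and the narrowest interquartile range (2.75). Without that array the control difference was -0.63. Leaving out the arrays numbered 1 gave a difference of -1.11 (adjusted p = 0.141) in labelled mutant and -1.91 (adjusted p = 0.0224) in control arrays. The control call then rested on kainate values of 5.69 and 4.0. In RNA of whole hippocampi, fewer cells of a type and less of a transcript per cell cannot be told apart, for Gad2 as for the other genes.

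**Figure D1:**
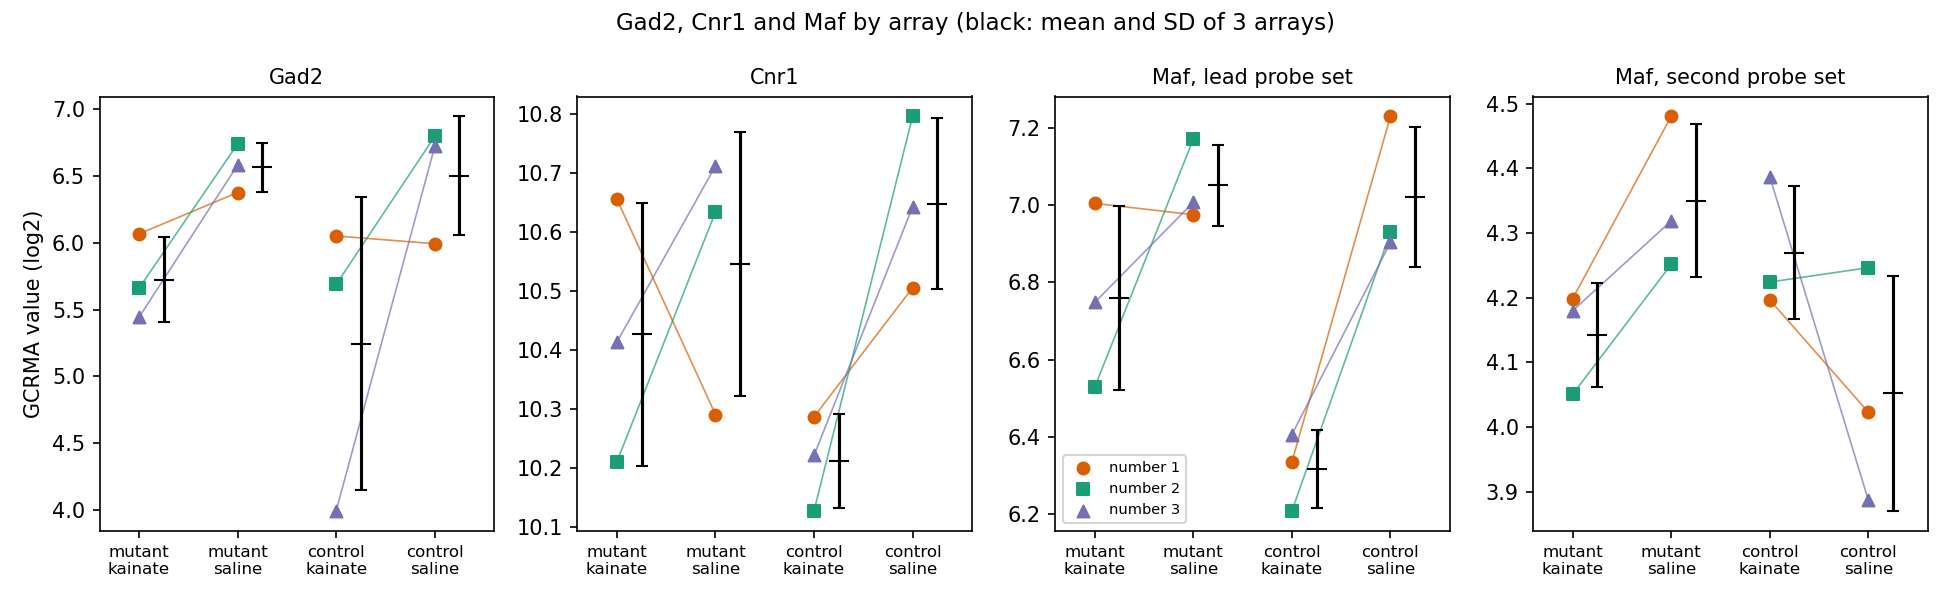
GCRMA values on the log2 scale (y axis) of the 4 probe sets in all 12 arrays, by group (x axis), with colours and symbols for the replicate number, lines joining the kainate and saline arrays of a number, and black bars for the mean and SD of 3 arrays. Control kainate arrays lie below all control saline arrays for Cnr1 and the lead Maf probe set, and labelled mutant kainate arrays lie below all labelled mutant saline arrays for Gad2 and the second Maf probe set.

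Cnr1 averaged 1.09-fold lower after kainate in labelled mutant arrays and 1.35-fold lower in control arrays, and neither difference was called with all arrays. In labelled mutant arrays the values were 10.66, 10.21 and 10.41 after kainate, against 10.29, 10.63 and 10.71 after saline. The groups overlapped, since the arrays numbered 1 ran opposite to the other two pairs, with a difference of 0.37 against -0.42 and -0.30. In control arrays the values were 10.29, 10.13 and 10.22 after kainate, against 10.50, 10.80 and 10.64 after saline. All control kainate arrays lay below all control saline arrays. The log2 difference was -0.12 (SE 0.142, limma adjusted p = 0.976) in labelled mutant and -0.44 (SE 0.142, adjusted p = 0.424) in control arrays. Without the arrays numbered 1 it was -0.36 (adjusted p = 0.0556) in labelled mutant arrays, which missed the threshold, and -0.55 (adjusted p = 0.0124) in control arrays, where Cnr1 was called lower. In labelled mutant arrays the Cnr1 difference was -0.25 without saline replicate 1 alone and -0.011 without kainate replicate 2 alone.

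Maf was represented by 2 probe sets that did not give the same picture. The lead probe set, which has the higher mean, read 7.0, 6.53 and 6.75 in labelled mutant kainate arrays, against 6.98, 7.17 and 7.01 in labelled mutant saline arrays. These groups overlapped through the arrays numbered 1, which differed by 0.03. In control arrays it read 6.34, 6.21 and 6.41 after kainate, against 7.23, 6.93 and 6.90 after saline. The control groups did not overlap, and the kainate array was the lower in all 3 numbers. The log2 difference was -0.29 (1.22-fold, SE 0.148, limma adjusted p = 0.814) in labelled mutant and -0.70 (1.63-fold, SE 0.148, adjusted p = 0.253) in control arrays. With the replicate number as a block the control difference had an adjusted p of 0.0546, in a fit that called 0.316% of all probe sets lower. With the block and each array centred on its median, a setting added after the data were seen, it passed (-0.85, adjusted p = 0.0359), as did 1.24% of probe sets in that direction. When the arrays numbered 1 were left out, the lead Maf difference was -0.45 (adjusted p = 0.0897) in labelled mutant and -0.61 (adjusted p = 0.0301) in control arrays. Leaving out labelled mutant kainate replicate 2 alone gave -0.18 in labelled mutant arrays.

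The second Maf probe set lay close to the value of 4 that the filter required. It read 4.20, 4.05 and 4.18 in labelled mutant kainate arrays, against 4.48, 4.25 and 4.32 in labelled mutant saline arrays, and these groups did not overlap. In control arrays it read 4.20, 4.22 and 4.39 after kainate, against 4.02, 4.25 and 3.89 after saline, and these groups overlapped. The log2 difference was -0.21 (SE 0.110, limma adjusted p = 0.817) in labelled mutant and 0.22 (SE 0.110, adjusted p = 0.428) in control arrays, so that the control sign was opposite to that of the lead probe set. The control value was 0.076 with median centring, 0.11 with quantile normalization and 0.13 without control saline replicate 3. Neither difference was called in any setting tried. The position of either set's probes in the Maf transcript was not known here, and the results for Maf refer to single probe sets.

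Averaged over both genotypes, kainate against saline gave -1.05 for Gad2 (2.07-fold, SE 0.318, limma adjusted p = 0.182), -0.28 for Cnr1 (1.21-fold, adjusted p = 0.248) and -0.50 for the lead Maf probe set (1.41-fold, adjusted p = 0.0865). The second Maf probe set gave 0.005 (adjusted p = 0.983). With the replicate number as a block, the lead Maf probe set was called lower (adjusted p = 0.0210), while Gad2 had an adjusted p of 0.0512 and Cnr1 of 0.106. That Maf call was lost on leaving out any of 7 single arrays, all except control kainate replicate 3 among those numbered 2 or 3 (adjusted p up to 0.0677). It was also made without a block when labelled mutant kainate replicate 1 was left out (-0.56, adjusted p = 0.0262). Leaving out all arrays numbered 1, the averaged difference was -1.51 for Gad2 (adjusted p = 0.0063), -0.45 for Cnr1 (adjusted p = 0.00241) and -0.53 for the lead Maf probe set (adjusted p = 0.00609), and these 3 were called. Gad2, Cnr1 and the lead Maf probe set were each lower after kainate in 5 of the 6 pairs of arrays that share a genotype and a number, a pattern that 24.2% of all tested probe sets also met or exceeded.

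**Figure D2:**
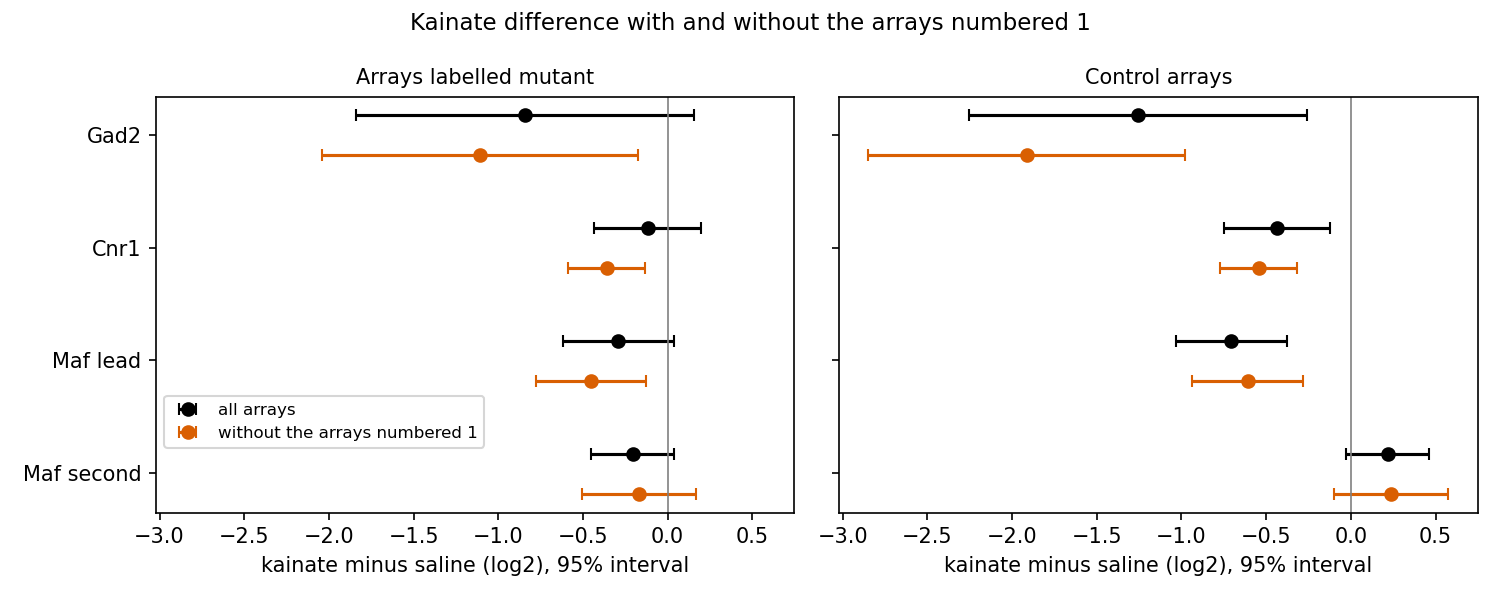
Kainate minus saline differences on the log2 scale (x axis) with 95% intervals from limma for the 4 probe sets (y axis), in arrays labelled mutant and in control arrays, with all 12 arrays (black) and without the arrays numbered 1 (orange). The intervals are not adjusted for the number of probe sets tested. Without the arrays numbered 1, those of Gad2, Cnr1 and the lead Maf probe set lie below 0 in both genotypes. For Gad2 in labelled mutant arrays the interval runs from -2.04 to -0.17. None of these differences was called in labelled mutant arrays (limma adjusted p = 0.141 for Gad2, 0.0556 for Cnr1 and 0.0897 for lead Maf).

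These counts have to be read against the whole table. The members were chosen with earlier results of these data known, so a count above the share of all probe sets is not a test. With all arrays none of the 4 member probe sets was called for kainate in either genotype, where limma called 11 of 6334 probe sets (0.174%) in labelled mutant and 10 (0.158%) in control arrays, of which 0 and 1 (0.0158%) were lower. For the average over genotypes none of the 4 was called either, against 0.41% of all, and with the block 1 of 4 was called lower, against 5.42% lower among all. At an unadjusted p under 0.05, limma listed 398 probe sets (6.28%) in labelled mutant arrays, with none of the members among them, and 737 (11.6%) in control arrays, with Gad2, Cnr1 and the lead Maf probe set among them. When the arrays numbered 1 were left out, none of the 4 was called in labelled mutant arrays, where 5.12% of all probe sets were called lower. In control arrays 3 of 4 were then called lower, against 7.22% of all, and for the average over genotypes 3 of 4, against 13.5%. In the same fits 9.41% of probe sets were called in either direction in labelled mutant arrays, 10.1% in control arrays and 22.3% for the average. Groups that did not overlap, with kainate below saline, were found for 2 of 4 member probe sets in labelled mutant arrays, against 5.46% of all, and for 2 of 4 in control arrays, against 6.27%. The median difference over all tested probe sets was -0.04 in labelled mutant and 0.02 in control arrays. Centring each array on its median moved the control median to -0.12.

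**Figure D3:**
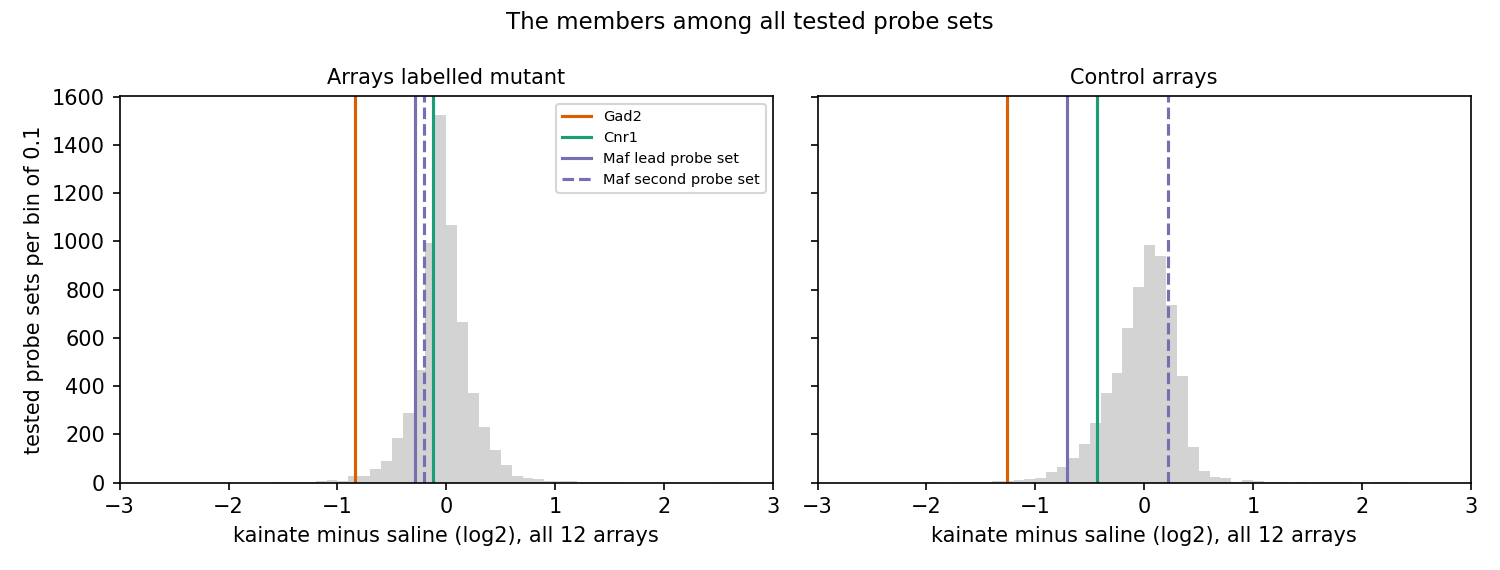
Number of tested probe sets (y axis, bins of 0.1) by their kainate minus saline difference on the log2 scale (x axis) in arrays labelled mutant and in control arrays, with vertical lines for the 4 member probe sets. Gad2 lies in the lower tail of both, with 0.837% and 0.268% of probe sets at or below it, while Cnr1 at -0.12 in labelled mutant arrays lies within the bulk, with 29.9% at or below it.

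The next comparison asked whether the kainate response of these genes differed between genotypes, which is the question of the series title. The response in labelled mutant minus that in control arrays was 0.42 for Gad2 (95% interval -0.99 to 1.83), 0.32 for Cnr1 (-0.13 to 0.76), 0.41 for the lead Maf probe set (-0.05 to 0.88) and -0.42 for the second (-0.77 to -0.08). None was called (limma adjusted p = 1.00 for each), and no probe set of the whole table was called (0 of 6334, with 147 at an unadjusted p under 0.05, among them the second Maf probe set). The unadjusted intervals of Gad2, Cnr1 and the lead Maf probe set included 0, that of Gad2 also reached beyond 1 on the log2 scale, and that of the second Maf probe set lay below 0. Without control kainate replicate 3 the Gad2 difference changed sign to -0.21. After the arrays numbered 1 were left out, the differences were 0.81 for Gad2, 0.18 for Cnr1, 0.16 for the lead Maf probe set and -0.41 for the second, with adjusted p between 0.741 and 0.851, and again no probe set was called (0 of 6334). Centring on array medians gave a median over all tested probe sets of 0.17 for this comparison, against -0.02 as deposited, and differences of 0.60, 0.51 and 0.60 for Gad2, Cnr1 and the lead Maf probe set. The second Maf probe set was then at -0.24, and at -0.27 with quantile normalization.

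Between genotypes with the same treatment no member was called. After kainate, labelled mutant minus control was 0.44 for the lead Maf probe set (1.36-fold, SE 0.148, limma adjusted p = 0.914), 0.48 for Gad2, 0.21 for Cnr1 and -0.13 for the second Maf probe set. All 3 labelled mutant kainate arrays lay above all 3 control kainate arrays for the lead Maf probe set, as for 3.09% of tested probe sets, and 0.0632% of all were called in either direction. Without control kainate replicate 3 the Gad2 difference after kainate was -0.15. With saline the differences were 0.06 for Gad2, -0.10 for Cnr1 and 0.03 for the lead Maf probe set. The second Maf probe set was at 0.30 (SE 0.110, adjusted p = 1.00), without overlap between labelled mutant and control saline arrays, as for 4.48% of tested probe sets in this direction. No probe set of the table was called with saline (0 of 6334, with 246 at an unadjusted p under 0.05). Leaving out the arrays numbered 1, no member was called in either comparison, where 0.189% of probe sets were called after kainate and 0.0789% with saline.

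The order of the group means was the same for Gad2 and the lead Maf probe set, with labelled mutant saline highest, then control saline, labelled mutant kainate and control kainate. The Gad2 means were 6.56 ± 0.182, 6.50 ± 0.443, 5.72 ± 0.316 and 5.24 ± 1.10 (SD, n = 3), and neighbours in that order overlapped. The lead Maf means in the same order were 7.05 ± 0.105, 7.02 ± 0.182, 6.76 ± 0.238 and 6.32 ± 0.10, and labelled mutant kainate and control kainate arrays were the neighbours without overlap. For Cnr1 the means were 10.65 ± 0.145 in control saline, 10.54 ± 0.224 in labelled mutant saline, 10.43 ± 0.223 in labelled mutant kainate and 10.21 ± 0.0801 in control kainate arrays, and each neighbour overlapped the next. The second Maf probe set had another order, with 4.35 ± 0.118 in labelled mutant saline, 4.27 ± 0.103 in control kainate, 4.14 ± 0.0805 in labelled mutant kainate and 4.05 ± 0.181 in control saline arrays.

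Other genes of GABA synthesis and transport were then examined. Of 13 genes listed, 7 had a probe set and 6 were tested, Gad2 among them. With all arrays none was called in either genotype, although 6 of 6 lay below 0 in labelled mutant and 5 of 6 in control arrays, with medians of -0.40 in labelled mutant and -0.34 in control arrays, against -0.04 and 0.02 over all tested probe sets. When the arrays numbered 1 were left out, 3 of 6 were called lower in labelled mutant arrays, against 5.12% of all probe sets, and 3 in control arrays, against 7.22%. Slc6a11, which encodes the GABA transporter GAT-3 found mainly on astrocytes, was called in both genotypes (-0.43 in labelled mutant, adjusted p = 0.0233, and -0.59 in control arrays, adjusted p = 0.00684). With all arrays it was at -0.45 in labelled mutant and -0.34 in control arrays. Slc38a2, which encodes an amino acid transporter that carries glutamine, was also called in both (-1.25 in labelled mutant, adjusted p = 0.00572, and -1.25 in control arrays, adjusted p = 0.0055), and was at -0.76 in each with all arrays. Glul, the glutamine synthetase of astrocytes, was called in labelled mutant arrays (-0.32, adjusted p = 0.0196) and not in control arrays (-0.10, adjusted p = 0.34). The genotype difference of that response was -0.22 (adjusted p = 0.741), and a further Glul probe set was called lower in both genotypes (-0.56 in labelled mutant, adjusted p = 0.0131, and -0.44 in control arrays, adjusted p = 0.0311). With all arrays the first of these Glul probe sets was at -0.27 in labelled mutant and -0.14 in control arrays, each with an SE of 2.00. Aldh5a1, which encodes the dehydrogenase that completes GABA breakdown, was at -0.35 in labelled mutant and 0.03 in control arrays with all arrays. Slc38a1, a neuronal glutamine transporter gene, was at -0.18 in labelled mutant and -0.34 in control arrays, also with all arrays. For the average over genotypes without the arrays numbered 1, 5 of 6 genes were called lower, against 13.5% of all probe sets. Slc38a1 was among them (-0.41, limma adjusted p = 0.0299), and Aldh5a1 was not called (-0.25, adjusted p = 0.227). With all arrays and the replicate block, 1 of 6 was called lower for the average, against 5.42%. Gad1 was not tested, since its probe set read between 2.24 and 2.79 in the 12 arrays, below the value of 4.

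Of 27 genes listed for GABA receptors and their scaffold, 4 were tested. Gabra4, the alpha4 subunit of GABA-A receptors, was at -0.90 in labelled mutant and -0.94 in control arrays and was not called with all arrays (limma adjusted p = 0.876 and 0.45). On the 8 arrays numbered 2 or 3 it was the single gene of this list called lower within a genotype by its probe set of highest mean, by 1.53 in labelled mutant (adjusted p = 0.00749) and by 1.28 in control arrays (adjusted p = 0.0158). Among all probe sets 5.12% were called lower there in labelled mutant and 7.22% in control arrays. The beta subunit genes Gabrb1 and Gabrb2 each had 2 tested probe sets that did not give the same picture. With all arrays the probe set of higher mean was at 0.014 in labelled mutant and 0.028 in control arrays for Gabrb1, and at 0.07 and -0.23 for Gabrb2. The other was at -0.64 in labelled mutant and -0.61 in control arrays for Gabrb1, and at -0.44 and -0.31 for Gabrb2, and none of these was called. On the 8 arrays numbered 2 or 3, this other Gabrb2 probe set was called lower in labelled mutant arrays (-0.59, adjusted p = 0.0461), and for the average over genotypes both of these other probe sets were called lower (-0.68 for Gabrb1, adjusted p = 0.009, and -0.47 for Gabrb2, adjusted p = 0.0154). For that average 13.5% of all probe sets were called lower. The GABA-B receptor gene Gabbr1 was at -0.04 in labelled mutant and -0.20 in control arrays with all arrays.

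**Figure D4:**
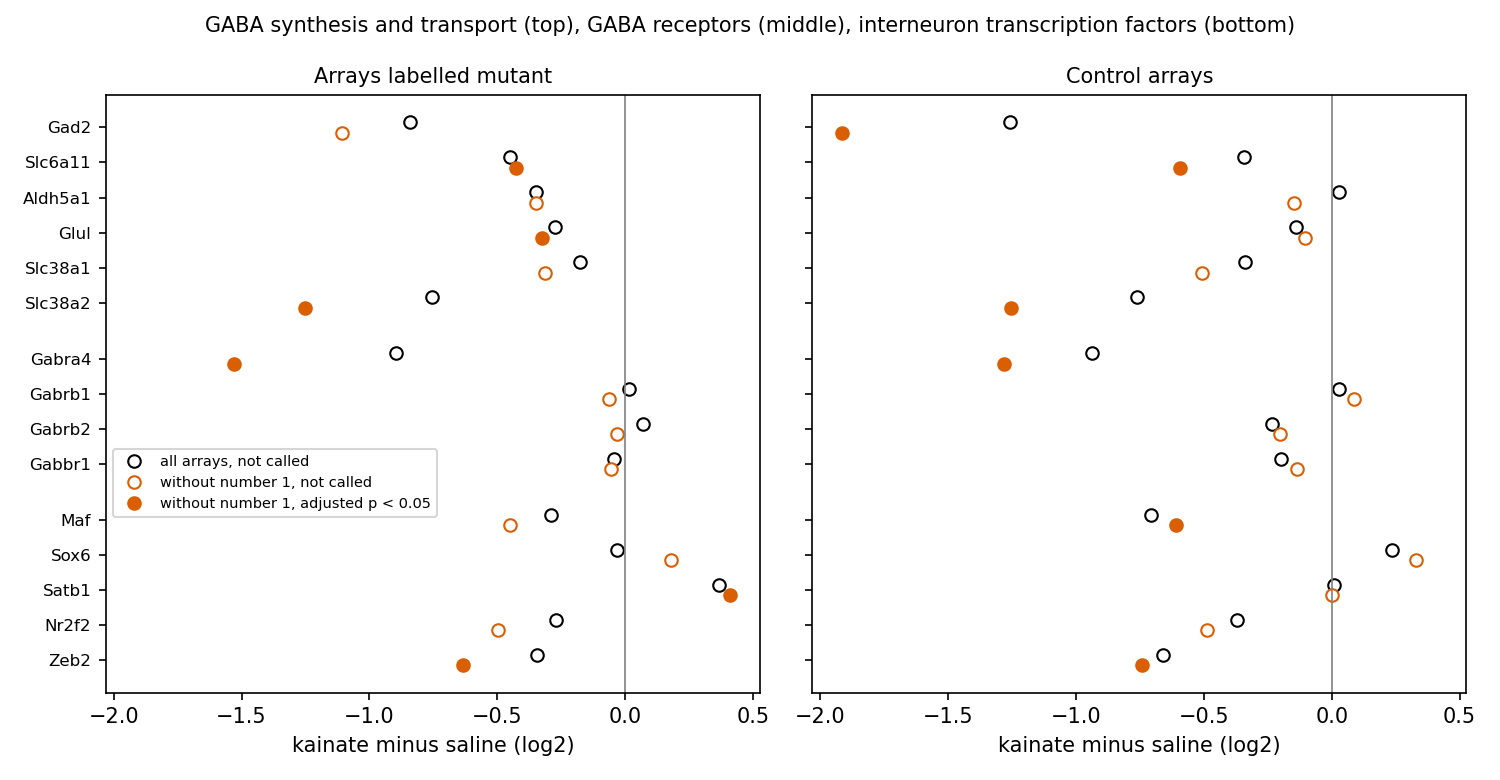
Kainate minus saline differences on the log2 scale (x axis) for the tested probe set of highest mean of each gene (y axis) of the lists of GABA synthesis and transport, GABA receptors and interneuron transcription factors, in arrays labelled mutant and in control arrays, with all arrays (black) and without the arrays numbered 1 (orange), filled where the adjusted p was under 0.05. No gene of these lists is filled with all arrays, and Slc38a2 and Gabra4 lie lowest in labelled mutant arrays without number 1.

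Markers of interneuron classes were examined beside the 3 genes. Of 32 listed, 7 had a probe set and 6 were tested, and none was called in either genotype with or without the arrays numbered 1. Pvalb, Sst, Vip, Cck, Npy, Reln and Calb2 were among the listed genes without a probe set annotated to them alone. Most interneuron classes were therefore not measured by their own markers here. Their median difference was 0.09 in labelled mutant and -0.04 in control arrays. Nos1, the neuronal nitric oxide synthase, was at 0.59 in labelled mutant and 0.36 in control arrays, and Lamp5 at 0.39 in labelled mutant and -0.06 in control arrays. The calcium buffer gene Calb1, which principal neurons also express, was at 0.12 in labelled mutant and -0.34 in control arrays, while its other tested probe set was at -0.28 and -0.23. The growth factor gene Igf1 was at 0.06 in labelled mutant and -0.51 in control arrays. Akr1c18 was at -0.10 in labelled mutant and 0.08 in control arrays, and the potassium channel gene Kcnc1 at -0.01 and -0.03. Group means of Igf1 (3.83 to 4.42) and Akr1c18 (4.15 to 4.25) lay close to the filter value of 4. For the average over genotypes without the arrays numbered 1, Nos1 was called higher (0.68, adjusted p = 0.0248), and the other 5 were not called. The mean level of the 6 markers per array lay between 6.22 and 6.35 in labelled mutant kainate and 6.06 and 6.17 in labelled mutant saline arrays, and between 5.99 and 6.35 in control kainate and 6.22 and 6.33 in control saline arrays. Among 22 interneuron transcription factors, 5 were tested, including Maf. On the 8 arrays numbered 2 or 3, Zeb2 was called lower in both genotypes (-0.63 in labelled mutant, adjusted p = 0.0283, and -0.74 in control arrays, adjusted p = 0.0167), and with all arrays it was at -0.34 in labelled mutant and -0.66 in control arrays. Zeb2 encodes a zinc finger factor that acts in interneuron migration and is also made by glia. The Satb1 probe set with the highest mean was then called higher in labelled mutant arrays (0.41, adjusted p = 0.0319) and was at 0.001 in control arrays, a difference between genotypes that was not called (0.41, adjusted p = 0.741). The other tested Satb1 probe sets were at 0.28 and -0.040 in labelled mutant arrays and were not called. For the average over genotypes on these 8 arrays, Maf, Zeb2 (-0.69, adjusted p = 0.00209) and Nr2f2 (-0.49, adjusted p = 0.0453) were called lower, against 13.5% of all probe sets, and with all arrays and the replicate block Maf and Zeb2 (-0.50, adjusted p = 0.0411). Nr2f2 encodes a nuclear receptor of interneurons born in the caudal ganglionic eminence. Sox6 was not called in these fits.

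Of 23 genes of the endocannabinoid system, 11 were tested, and with all arrays none was called in either genotype, with medians of 0.04 in labelled mutant and 0.06 in control arrays. On the 8 arrays numbered 2 or 3, Abhd4, a hydrolase on a route to anandamide, was called higher in both genotypes (0.66 in labelled mutant, adjusted p = 0.0405, and 0.77 in control arrays, adjusted p = 0.0227), as were 4.29% of all probe sets in labelled mutant and 2.84% in control arrays. Within a genotype, Cnr1 in control arrays was the single gene of the list called lower on these 8 arrays, and its difference between genotypes was not called. For the average over genotypes on the same arrays, 3 of 11 were called lower, against 13.5% of all probe sets, namely Cnr1, Cnrip1 (-0.34, adjusted p = 0.0268) and Naaa (-0.41, adjusted p = 0.0387). Naaa encodes an amidase that degrades acylethanolamides. Abhd4 and Dagla, an enzyme that makes 2-arachidonoylglycerol, were called higher for the average (0.72, adjusted p = 0.00319, and 0.35, adjusted p = 0.0378), against 8.76% of all probe sets. Cnrip1, which encodes a protein that binds the tail of CB1, was at -0.30 in labelled mutant and -0.18 in control arrays with all arrays. Napepld, whose product releases anandamide from a membrane precursor, was at -0.24 in labelled mutant and -0.25 in control arrays, also with all arrays. Of the Maf family and its partners, 3 of 13 genes were tested. Maff is a small Maf factor without the activation domain of the large ones. With all arrays it rose by 2.65 in labelled mutant (limma adjusted p = 0.00219) and by 2.15 in control arrays (adjusted p = 0.0099). Among all probe sets 0.174% were called higher there in labelled mutant and 0.142% in control arrays. Maff exceeded the filter value of 4 on 6 arrays. Its means after saline lay below 4, at 3.38 in labelled mutant and 3.68 in control arrays. The size of the rise was therefore measured from values under the filter. In the same fit Mafg was at -0.001 in labelled mutant and -0.11 in control arrays.

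Levels of markers of other cell types were set beside these results, and their part in the results was not tested. The 2 tested of 14 choroid plexus markers, Clic6 and Sostdc1, had a mean level between 6.28 and 7.30 in labelled mutant kainate and 6.14 and 7.73 in labelled mutant saline arrays. In control kainate arrays it lay between 5.72 and 6.72, below all control saline arrays at 7.07 to 7.20. The 2 tested of 16 oligodendrocyte markers, Mobp and Ermn, had a mean between 7.30 and 7.98 in labelled mutant kainate and 7.78 and 8.24 in labelled mutant saline arrays, and between 7.54 and 8.07 in control kainate and 7.97 and 8.29 in control saline arrays. The 4 tested of 16 microglia markers had higher means after kainate, without overlap in control arrays, with 6.33 to 6.57 in labelled mutant kainate and 5.89 to 6.35 in labelled mutant saline arrays, and 5.72 to 5.88 in control kainate and 5.50 to 5.64 in control saline arrays. Of single tested probe sets, 6.27% lay lower and 13.1% higher after kainate without overlap in control arrays. For 12 tested of 18 astrocyte markers the means overlapped between treatments, at 9.05 to 9.52 in labelled mutant kainate and 9.11 to 9.63 in labelled mutant saline arrays, and at 8.89 to 9.32 in control kainate and 8.85 to 9.35 in control saline arrays. This overlap came through the arrays numbered 1. In the arrays numbered 2 and 3, kainate means lay below saline means, at 9.438 and 9.516 against 9.628 and 9.521 in labelled mutant arrays. In control arrays they were 9.323 and 9.297 against 9.349 and 9.337. Glul, which is on this list, ranged from 7.25 to 12.47 over the 12 arrays. The means of the 8 tested of 26 principal neuron markers also overlapped between treatments, at 8.50 to 8.56 in labelled mutant kainate and 8.36 to 8.67 in labelled mutant saline arrays, and at 8.78 to 8.94 in control kainate and 8.75 to 8.86 in control saline arrays. Between genotypes they did not overlap, since every labelled mutant array lay below every control array. For the microglia markers every labelled mutant array lay above every control array. Of single tested probe sets, 7.63% lay lower and 3.09% higher in labelled mutant arrays without overlap after kainate. With saline these shares were 4.33% and 4.48%. They refer to 1 treatment at a time and not to means over a list. No gene of these 5 lists was called with all arrays in either genotype. On the 8 arrays numbered 2 or 3, the astrocyte glutamate transporter gene Slc1a3 was called lower (-1.37 in labelled mutant and -1.15 in control arrays) and Atp1b2 higher (0.62 and 0.56) in both genotypes, with Glul lower in labelled mutant arrays. Of the principal neuron markers, the AMPA receptor subunit gene Gria1 was called lower (-0.33 in labelled mutant and -0.43 in control arrays) and Fibcd1 higher (0.60 and 0.58). No choroid plexus, oligodendrocyte or microglia marker was called within a genotype there. In labelled mutant arrays 5.12% of all probe sets were called lower and 4.29% higher, and in control arrays 7.22% and 2.84%. For the average over genotypes on the 8 arrays numbered 2 or 3, Mlc1 and Ermn were also called lower and Neurod2 and Olfml3 higher. There 13.5% of all probe sets were called lower and 8.76% higher. With all arrays and the replicate block, Slc1a3, Gria1 and Ermn were called lower and Atp1b2 higher for the average. In that fit 5.42% of all were called lower and 2.21% higher. As a measure of RNA quality, the 3′ minus 5′ value of the actin control probe sets lay between 1.44 and 1.81 in labelled mutant kainate and 1.62 and 1.71 in labelled mutant saline arrays, and between 1.62 and 1.82 in control kainate and 1.51 and 1.82 in control saline arrays. The same measure for Gapdh lay between -0.42 and -0.03 over the 12 arrays. For the transferrin receptor it was 2.21 in control saline replicate 3, against 1.18 to 1.41 in the other 11 arrays. That array is 1 of the 2 control saline arrays in the fits without the arrays numbered 1, and the part of this difference in the calls made there was not tested.

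The genes whose values were most like each member were then listed. Likeness was measured as the root mean square difference between the 12 values of 2 probe sets, each minus its own mean, which describes these arrays and carries no test, and the 12 points share their arrays and replicate numbers. Nearest to Gad2 were Map2k5, a kinase of the ERK5 pathway, at 0.299, the tau tubulin kinase gene Ttbk2 at 0.320, Ube2q2 at 0.324, the phosphatase gene Mtmr2 at 0.341 and Mgat4a at 0.354, while Gad2 itself varied by 0.748 around its mean. After the mean of each replicate number was taken out, Ttbk2 was nearest at 0.165 and Mtmr2 remained among the nearest 5. Nearest to Cnr1 was Gria3, an AMPA receptor subunit gene, at 0.0708 against 0.218 for Cnr1 around its own mean, and it was also nearest after the number means were taken out (0.0604). Cdc42, Reep5, Rap2c and the calcineurin subunit gene Ppp3ca followed, at 0.103 to 0.116. Nearest to the lead Maf probe set were Klhl20, Arhgef26, Morc3, AI504432 and Bmpr2, at 0.160 to 0.170 against 0.324, and Arhgef26 remained among the nearest 5 after the number means were taken out. Among 4616 genes compared, Cnr1 ranked 38 and Gad2 4362 in likeness to Maf, Maf ranked 381 and Gad2 4430 in likeness to Cnr1, and Maf ranked 457 and Cnr1 515 in likeness to Gad2. After the number means were taken out, Cnr1 ranked 101 in likeness to Maf, and Maf 788 in likeness to Cnr1. The measure depends on the size of the variation as well as on its pattern. Gad2 varied more around its mean than Cnr1 or Maf did, so these ranks do not compare patterns alone. Cnr1 and Maf differed by 0.211, against 0.218 for Cnr1 around its own mean.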

How the data were processed

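RNA pooled from 3 animals was hybridized to each of 12 Affymetrix MG-U74B arrays. The authors deposited log2 values made with GCRMA in R 2.4.1 (both named in the submitters' processing notes). The settings were not stated, and the log2 scale was inferred from a range of -1.05 to 13.3. After 66 control probe sets were set aside, 12411 remained, and 6334 with values over 4 on 3 or more arrays were tested. Array medians lay between 3.77 and 4.07, and 5741 to 6378 probe sets per array exceeded 4. The number of arrays limits the precision, and p-values measure the spread between pooled samples.

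The 12 arrays were fitted with 1 mean for each of the 4 groups in limma 3.58.1 (R 4.3.3), using eBayes with a trend on mean intensity, and p-values were adjusted over the whole table in each of 6 comparisons. The deviations from group means of arrays sharing a number correlated above 0.1 in 18 of 18 pairs (r between 0.361 and 0.881). The numbers therefore pair the arrays, and blocked values are given where they change a call.

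A gene's lead probe set has its highest mean. From each list at most the 4 genes with the smallest p in a comparison are named, and all tested genes of GABA synthesis, transport or interneuron class. Further probe sets of a named gene are given where they disagree. For likeness the 5 nearest genes per member are named, from 4617 genes with a tested probe set (4616 others). Alternatives were a replicate block, quantile normalization, median centring, other filters, no trend, and leaving out single arrays or those numbered 1. Members, lists and tests were chosen with earlier results of these data known. The calculations were tested on simulated data.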

Additional observations from a re-analysis of the deposited data

How the results depend on the processing

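With all 12 arrays the 4 member probe sets were not called in any comparison by the deposited values, quantile normalization, median centring, no filter, a filter at 5 (which removes the second Maf probe set) or no intensity trend. A replicate block called the lead Maf probe set for the average over genotypes (-0.50, and -0.46 with quantile normalization) and changed no other member call. Median centring with the block, added after seeing the data, called it for the average (-0.54) and in control arrays (-0.85). Without the arrays numbered 1, with or without the block, the called values were -1.91 for Gad2, -0.55 for Cnr1 and -0.61 for lead Maf in control arrays, and -1.51, -0.45 and -0.53 for the average.

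Leaving out single arrays with the block, also added later, the lead Maf probe set was called in control arrays without labelled mutant saline or kainate replicates 1 or 2 (-0.70 in each). For the average it was called at -0.56 to -0.46 in 5 of 12 cases (-0.56, -0.55, -0.53, -0.47 and -0.46), Gad2 at -1.28, -1.26, -1.15 and -1.13 without each array numbered 1, and Cnr1 at -0.36 and -0.35 without labelled mutant kainate or saline replicate 1. Without a block, leaving out 1 array gave -0.56 to -0.44 for lead Maf in the average.

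Some uncalled differences changed sign. Labelled mutant minus control with saline became -0.030 for Gad2 and -0.062 for lead Maf with median centring, and -0.10 for Gad2 without the arrays numbered 1. Leaving out 1 array it ranged from -0.19 to 0.21 for Gad2, from -0.19 to 0.025 for Cnr1 and from -0.030 to 0.14 for lead Maf. The second Maf probe set averaged -0.025 with quantile normalization and -0.042 with median centring, and ranged from -0.036 to 0.054 on leaving out 1 array. The Gad2 genotype differences ranged from -0.21 to 0.82 for the response and from -0.15 to 0.88 after kainate, the lowest being without control kainate replicate 3. Cnr1 in labelled mutant arrays reached 0.014 without labelled mutant kainate replicate 2 and with the block.

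Counts of called probe sets depended on the setting. For kainate in labelled mutant arrays the 11 became 23 with the block, 21 with the block and quantile normalization, 596 without number 1 and 730 with the block as well. In control arrays the 10 became 37, 26, 637 and 791, and 89 with the block and median centring. For the average the 26 became 483, 384, 1412, 1578 and 295. Labelled mutant against control gave 4 after kainate, which became 7, 8, 12 and 15, and 0 with saline, which became 9, 1, 5 and 9. Leaving out 1 array gave 6 to 17 in labelled mutant arrays, 4 to 14 in control arrays, 14 to 243 for the average, 1 to 5 between genotypes after kainate and 0 to 1 with saline. The cause of these shifts was not tested. Pooled samples on 3 arrays per group, a single probe set for Gad2 and Cnr1, and a Gad1 probe set below the filter limit what these arrays can show.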
